A study of Mus musculus with 2 samples.

Results

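The tumour necrosis factor (TNF) superfamily ligands and receptors were described across the cell classes of a mouse liver immune cell suspension. They were chosen by symbol: every gene whose symbol begins with Tnfsf or Tnfrsf followed by a digit, plus Cd40, Cd40lg, Cd27, Cd70, Fas, Lta, Ltb and Ltbr, with 3 matching symbols left out by the rule. This gave 37 genes of the 31053 listed: 14 ligands, 22 receptors and 1 antisense gene, Tnfsf13os. The rule itself uses no expression value, though the genes were chosen with earlier results of these data known. Every gene was matched by its identifier to the GENCODE vM21 annotation of GRCm38, where they lie on 12 chromosomes, 9 of them on chromosome 4.

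TNF superfamily ligands are mostly type II membrane proteins that act as trimers, on the cell surface or after shedding, and they cluster their receptors on neighbouring cells. Receptors with a cytoplasmic death domain can recruit adaptors that activate caspases, whereas the costimulatory receptors of lymphocytes bind TRAF adaptors and signal to NF-kB. In the liver the family is known for hepatocyte death, for the crosstalk of lymphotoxin-producing lymphocytes with stromal and endothelial cells, and for the support of B cells and T cells.

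Immune cells had been released from liver with collagenase IV, sorted and profiled in droplets (10x Genomics Chromium), a method that tags transcripts by cell and by molecule, so that a unique molecular identifier (UMI) is counted once. The labels name 1 sample of each genotype, WT and Rcrin knockout, from mice 8 weeks old with the strain given as RedMUC298trTg for both. The series title describes the knockout as a conditional deletion in liver and the WT as Rcrin flox; the Cre driver, the number of animals and the sort gate are not given in the sources used here. Both samples' files were the same in all 3 kinds (values, genes and barcodes), without a differing byte, and shared all 11192 barcodes. The data are therefore 1 matrix of unknown genotype, and WT was not compared with knockout. All values below describe that matrix as 1 sample without replicates, so no test was possible and no p-value is given. Intervals are 95% and cover counting error only. Where a class had 0 UMI of a gene, the limit given is the level that 3 UMI of that class would make, not the end of an interval.

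Of the 11192 barcodes, 10366 passed the filters (a minimum of 500 UMI and of 200 genes, with no more than 10% of UMI mitochondrial). They held 64321006 UMI, with a median of 4343.5 UMI per barcode. Cells were placed in classes by the number of marker genes detected from fixed lists, none of which holds a TNF superfamily member. A class needed at least 3 of its own markers, and the next list could have at most 1/2 as many. In all, 8821 barcodes (85.1%) fell in a class. Another 258 had too few markers, and 1287 carried markers of competing lists. The 13 classes with at least 30 cells were ranked. The label gives immune cells, and the suspension also held endothelial cells by their markers. The classes were 2903 B-like, 2305 T-like, 899 neutrophil-like, 849 sinusoidal endothelial-like, 411 NK-like, 358 Kupffer-like, 253 nonclassical monocyte-like and 243 classical monocyte-like cells, followed by 184 plasmacytoid dendritic (pDC)-like, 156 ILC1-like (type 1 innate lymphoid), 52 plasma-like, 43 type 1 dendritic (cDC1)-like and 33 basophil-like cells. Median depth per class ran from 2563 UMI in neutrophil-like to 18347 UMI in cDC1-like cells, so levels are given as UMI of a gene per 1000000 UMI of the class (CPM). A class is a range of marker counts: 134 T-like, 39 NK-like, 21 ILC1-like and 14 Kupffer-like cells stood at the minimum number of markers. The summed level of a list of digestion response genes (Fos, Jun, Egr1 and others) ran from 2552 CPM in plasma-like to 43693 CPM in basophil-like cells. Its part in the levels below was not tested. In the sums over a class, fewer cells with a transcript and less of it per cell cannot be told apart, so shares of cells are given beside the main levels.

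Of the 37 genes, 29 reached 30 UMI in the ranked classes, 9 ligands, 19 receptors and the antisense gene. That is 78.4%, against 42.5% of all listed genes. The highest class was at least 2-fold above the next for 12 of these 29 genes (41.4%), against 24.6% of the 13205 genes with at least 30 UMI. By role, these were 6 of 9 ligands and 6 of 19 receptors. The median ratio of the highest to the next class was 3.29 for the ligands, 1.62 for the receptors and 1.32 for all genes. For 8 of the 29 (27.6%) the lower end of the interval of that ratio was itself at least 2, against 14.1% of all genes. The highest class was lymphoid (B, plasma, T, NK or ILC1-like) for 12 of 29 (41.4%, background 34.7%). T-like cells held the highest level of 7 members, against 3.97% of all genes, and ILC1-like cells of 3, against 9.86%. Neutrophil-like cells held 4 (background 5.92%), endothelial-like cells 4 (22.2%) and nonclassical monocyte-like cells 3 (4.16%). B-like, Kupffer-like, pDC-like and classical monocyte-like cells held 2 each (8.97%, 8.13%, 8% and 3.47%). Plasma-like, NK-like, cDC1-like and basophil-like cells held 0 (5.81%, 6.08%, 6.78% and 6.65%). Levels are compared here between classes for 1 gene at a time, not between genes, because tag counts are not scaled by transcript length.

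**Figure D1:**
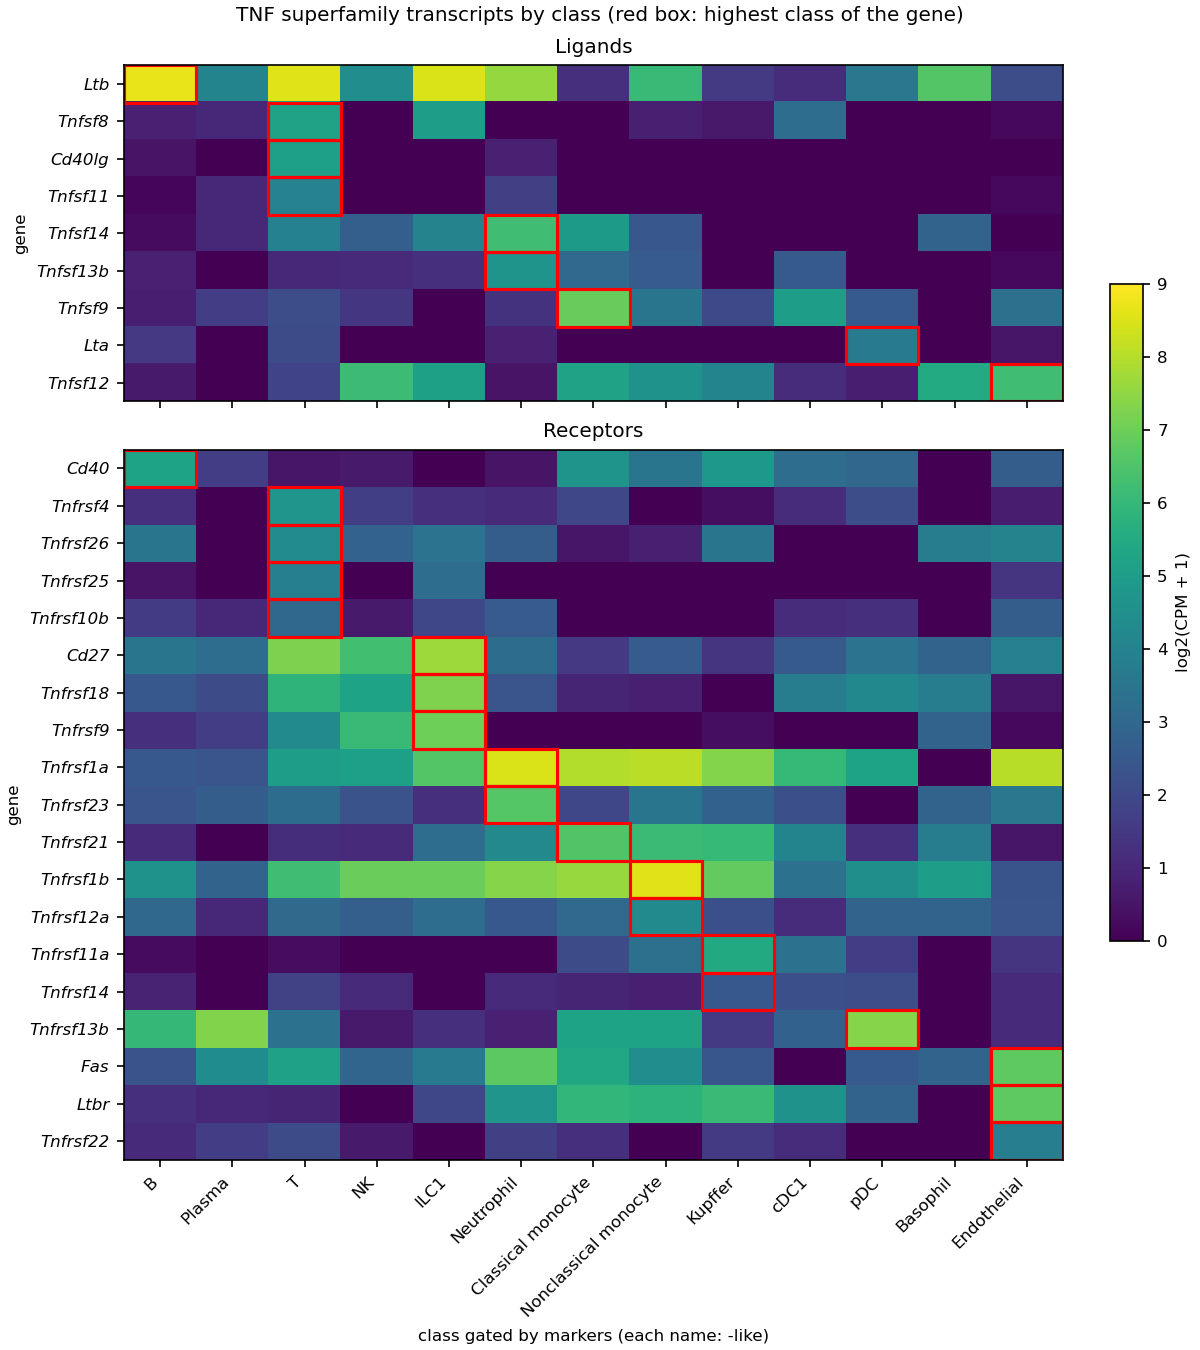
Level of the 9 detected ligands and 19 detected receptors (rows) in the 13 ranked classes (columns), as log2(CPM + 1) from UMI summed over the cells of a class; the red box marks the highest class of each gene and the antisense gene is not drawn. Cd40lg, Tnfsf11 and Tnfrsf4 stand out in T-like cells (43.4, 6.60 and 7.21 times the next class), Tnfrsf23 and Tnfsf14 in neutrophil-like cells and Tnfrsf11a in Kupffer-like cells, whereas Tnfrsf1a and Tnfrsf1b were found across most classes.

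Among the ligands, Ltb (lymphotoxin beta, the membrane-anchoring subunit of the lymphotoxin heterotrimer, chr17:35194439-35196320) was found in all 13 classes but at very unequal levels. Ltb stood at 411 CPM in B-like cells (4260 UMI; 398 to 423), 376 CPM in T-like cells (4971 UMI; 366 to 387) and 359 CPM in ILC1-like cells. It was detected in 66.7% of B-like, 71.9% of T-like and 67.3% of ILC1-like cells. The B-like to T-like ratio was 1.09 (1.05 to 1.14), so these classes were close together and well above the rest. Neutrophil-like cells followed with 188 CPM (494 UMI, 38.7% of cells) and basophil-like cells with 94.4 CPM (15 UMI in 6 cells). Ltb in nonclassical monocyte-like cells was 66.3 CPM, and in NK-like cells 20.5 CPM. Ltb was low in other classes: 1.39 CPM (1.23% of cells, median depth 8612 UMI) in classical monocyte-like, 1.90 CPM (1.96%, 11051 UMI) in Kupffer-like and 3.39 CPM (1.88%, 7101 UMI) in endothelial-like cells. Beside the neutrophil-like level of Ltb stand summed T cell and B cell marker levels of 33.9 and 53.6 CPM in those cells, against 8.78 and 25.4 CPM in classical monocyte-like cells, 3241 CPM of the T list in T-like cells and 8811 CPM of the B list in B-like cells. The neutrophil-like level of Ltb exceeded the classical monocyte-like level 136-fold (46.1 to 660). The part of free RNA or of lymphocyte transcripts in these levels was not tested.

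The sequence before the Ltb start site is shown because it is 1 of 4 member windows that hold a match to the NF-kB consensus, in capitals here. RefSeq promoter windows (GRCm38.p6, from 250 bases before to 50 bases after a start) were given for 26 of the 37 genes, in 30 windows. The match was searched on both strands, and 4 of 30 windows (13.3%) held one, against 8.46% of 32851 windows of the same length. The match in Ltb begins 87 bases before the RefSeq start. That start lies inside the Ltb gene as GENCODE places it, so the last of the printed bases fall within that gene. Of the other motifs searched on both strands, TGTGGT was in 13.3% of member windows against 16.8% of all, TATAAA in 13.3% against 13.6%, and GAGGAA in 33.3% against 28.3%. A match describes letters only. The 250 bases before the start of Ltb (chr17:35194257-35194506, plus strand) read, 5′ to 3′:
Ltb: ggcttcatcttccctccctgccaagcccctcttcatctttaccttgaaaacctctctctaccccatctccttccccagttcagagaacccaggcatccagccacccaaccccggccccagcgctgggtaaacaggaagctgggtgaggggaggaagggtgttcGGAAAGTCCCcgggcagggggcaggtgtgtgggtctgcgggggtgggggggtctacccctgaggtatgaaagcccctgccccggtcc

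Lta (lymphotoxin alpha, which forms a soluble trimer or joins Ltb on the membrane) lies 6.84 kb from Ltb. Lta gave only 84 UMI in the ranked classes. It stood at 11.8 CPM in pDC-like cells (17 UMI), 3.26 CPM in T-like cells (43 UMI), 1.83 CPM in B-like cells (19 UMI), 0.761 CPM in neutrophil-like cells (2 UMI) and 0.462 CPM in endothelial-like cells (3 UMI). The pDC-like value rested on 4 cells, 1 of which carried 14 of the 17 UMI. Without that cell the pDC-like level was 0.637 times the T-like level in place of 3.61 times, and T-like cells ranked first.

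Cd40lg (CD40 ligand, the helper signal of activated T cells to B cells and macrophages) was close to exclusive to T-like cells. It stood at 33.0 CPM there (436 UMI, 10.8% of cells) and gave UMI in only 2 other classes, 0.761 CPM in neutrophil-like cells (2 UMI) and 0.385 CPM in B-like cells (4 UMI). The ratio of T-like to neutrophil-like cells was 43.4 (11.9 to 359). NK-like cells, which share many transcripts with T cells, had 0 UMI, which allows up to 1.66 CPM. T-like cells also led for Tnfsf11 (RANKL, the ligand of Tnfrsf11a), with 15.1 CPM (199 UMI, 4.16% of cells), 6.60 times (2.98 to 18.2) the neutrophil-like level of 2.28 CPM (6 UMI in 2 cells, 5 of them in 1 cell). That ratio rested on few neutrophil-like UMI: it was 37.6 with 1 marker more needed for a class and 28.3 as a mean over cells. Tnfsf8 (CD30 ligand) was shared by T-like cells (35.7 CPM, 472 UMI) and ILC1-like cells (31.9 CPM, 23 UMI). Their ratio was 1.12 (0.737 to 1.78), so these 2 classes could not be ordered. Of the 23 ILC1-like UMI, 20 lay in the 112 cells with a T cell marker (38.5 CPM). The other 3 lay in the 44 cells without one (14.9 CPM, 3.07 to 43.5). NK-like, neutrophil-like and classical monocyte-like cells had 0 UMI of Tnfsf8.

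Of the ligands highest in myeloid cells, Tnfsf9 led in classical monocyte-like cells and Tnfsf14 and Tnfsf13b in neutrophil-like cells. Tnfsf9 (4-1BB ligand, a costimulator of T cells) was highest in classical monocyte-like cells at 119 CPM (258 UMI, 37.0% of cells), against 31.1 CPM in cDC1-like cells, where 1 cell carried 11 of 26 UMI. The ratio of these classes was 3.83 (2.55 to 5.97), and 6.78 where the next list could have at most 1/3 as many markers. Tnfsf9 stood at 10.4 CPM in nonclassical monocyte-like, 9.09 CPM in endothelial-like and 2.99 CPM in Kupffer-like cells. Tnfsf14 (LIGHT, a ligand of Tnfrsf14 and Ltbr) was highest in neutrophil-like cells at 74.2 CPM (195 UMI, 17.6% of cells). Classical monocyte-like cells followed with 29.1 CPM, then ILC1-like cells with 15.3 and T-like cells with 14.5 CPM. Kupffer-like and endothelial-like cells gave 0 UMI of Tnfsf14, which allows up to 0.815 and 0.462 CPM. Tnfsf13b (BAFF, a survival factor of B cells) was also highest in neutrophil-like cells, at 24.4 CPM (64 UMI, 6.90% of cells), 3.29 times (1.88 to 6.10) the 7.39 CPM of classical monocyte-like cells. With each cell thinned to 1000 UMI that ratio was 1.22, no longer 2-fold, but fewer than 30 UMI of Tnfsf13b were then left in the ranked classes. Tnfsf13b was 5.21 CPM in nonclassical monocyte-like cells (7 UMI), 4.79 CPM in cDC1-like cells (4 UMI), and 0.771 CPM in B-like cells.

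Tnfsf12 (TWEAK, the ligand of Tnfrsf12a) had a broader range. It was 75.5 CPM in endothelial-like cells (490 UMI, 40.5% of cells) and 70.9 CPM in NK-like cells (128 UMI, 25.1% of cells), a ratio of 1.07 (0.875 to 1.30) that leaves their order undecided. Basophil-like cells stood at 44.1 CPM (7 UMI), classical monocyte-like cells at 35.6, ILC1-like cells at 33.3, nonclassical monocyte-like cells at 23.8 and Kupffer-like cells at 15.8 CPM. T-like cells stood at 2.50 CPM, B-like cells at 0.578 and neutrophil-like cells at 0.380 CPM. Exons of Tnfsf12 overlap those of the readthrough gene Tnfsfm13 on the same strand, and 45.2% of the 91-base windows of Tnfsf12 transcripts also occur in Tnfsfm13 transcripts, so reads of the shared stretch may have been split or dropped. The antisense gene Tnfsf13os overlaps Tnfsf13 and Tnfsfm13 on the other strand. It was 14.2 CPM in nonclassical monocyte-like cells (19 UMI) and 10.6 CPM in Kupffer-like cells (39 UMI), a ratio of 1.34 (0.729 to 2.37; 0.728 when thinned to 1000 UMI), and whether the counting used strand is not stated.

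5 ligands stayed under 30 UMI in the ranked classes. Cd70 (the ligand of Cd27) had 0 UMI there and 1 UMI in all kept barcodes. Tnfsf13 (APRIL, a plasma cell factor) had 7 UMI, Tnfsf15 (TL1A, the ligand of Tnfrsf25) 6, Tnfsf18 (GITR ligand) 5 and Tnfsf4 (OX40 ligand) 9. For Tnfsf13, 54.8% of 91-base windows are shared with Tnfsfm13, so its count may be too low. Of the 5 Tnfsf18 UMI, 4 were in cDC1-like cells (4.79 CPM). These genes were not detectable at this depth beyond such single counts.

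The costimulatory receptors of lymphocytes were led by ILC1-like and T-like cells. Cd27 (the receptor of Cd70) was 203 CPM in ILC1-like cells (146 UMI, 52.6% of cells), 149 CPM in T-like cells (1972 UMI, 42.8%) and 76.4 CPM in NK-like cells (138 UMI, 17.8%). Tnfrsf18 (GITR) was 153 CPM in ILC1-like cells, 56.5 CPM in T-like cells and 36.0 CPM in NK-like cells, and at most 17.3 CPM in any other class (pDC-like, 25 UMI). Tnfrsf9 (4-1BB, the receptor of Tnfsf9) was 129 CPM in ILC1-like cells, 68.1 CPM in NK-like cells and 18.9 CPM in T-like cells. All 3 were thus higher in ILC1-like cells than in either other class, by ratios to the next class of 1.36 (1.14 to 1.61), 2.70 (2.19 to 3.30) and 1.89 (1.43 to 2.50). The ILC1-like class carried 1213 CPM of the T cell marker list, which was mostly Cd3g: in the 112 ILC1-like cells with a T marker Cd3g was 1524 CPM, Trac 7.71 CPM and Cd3e 0 CPM. In the 44 ILC1-like cells with no T marker, Cd27 was 273 CPM, Tnfrsf18 193 CPM, Tnfrsf9 104 CPM and Ltb 382 CPM. A cell that lacks a UMI of a T marker may still express the gene. The part of T cell transcripts in these levels was not tested.

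Cd27 was also found in endothelial-like cells, at 14.0 CPM (91 UMI, 8.48% of cells). Kupffer-like cells, with a deeper median, stood at 1.63 CPM (6 UMI, 1.68% of cells), and the ratio was 8.61 (3.80 to 24.1). The T cell marker list summed to 14.5 CPM in endothelial-like and 8.69 CPM in Kupffer-like cells, and Ltb to 3.39 and 1.90 CPM. The part of T cell transcripts in the endothelial-like level was not tested. Exons of Cd27 contain a microRNA gene, Mir8113, on the same strand.

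Tnfrsf4 (OX40) stood at 24.9 CPM in T-like cells (329 UMI, 7.20% of cells), its highest class, against 3.46 CPM in pDC-like cells (5 UMI), a ratio of 7.21 (3.06 to 22.3). With each cell thinned to 1000 UMI the value was 1.29. It corresponds to 3 pDC-like UMI, the level also put in where a class had 0 UMI. It is therefore not read as a measured ratio. The ratio was 11.7 where the next list could have at most 1/3 as many markers. Tnfrsf25 (DR3, a death domain receptor that costimulates T cells) was 13.8 CPM in T-like cells (182 UMI) and 8.32 CPM in ILC1-like cells (6 UMI). Their ratio was 1.66 (0.746 to 4.57), so their order could not be told. The value of 0.519 when thinned to 1000 UMI corresponds to 3 ILC1-like UMI, the level also put in for 0 UMI. NK-like cells had 0 UMI of Tnfrsf25. Tnfrsf8 (CD30) had 22 UMI in the ranked classes, of which 10 were in T-like and 6 in B-like cells, and was not ranked. Tnfrsf14 (HVEM, the receptor of Tnfsf14) gave 81 UMI in all ranked classes and no class above 4.62 CPM, its level in Kupffer-like cells (17 UMI). The ratio to cDC1-like cells (3 UMI) was 1.28 (0.372 to 6.84), so its order of classes could not be told. The value of 0.0467 when thinned to 1000 UMI likewise corresponds to 3 cDC1-like UMI and is not read as a measured ratio.

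Cd40 (the receptor of Cd40lg on antigen-presenting cells) was 36.5 CPM in B-like cells (379 UMI), 27.2 CPM in Kupffer-like cells (100 UMI, 18 of them in 1 cell) and 24.0 CPM in classical monocyte-like cells (52 UMI). It was 10.4 CPM in nonclassical monocyte-like cells, 8.39 CPM in cDC1-like cells and 0.454 CPM in T-like cells. The B-like to Kupffer-like ratio was 1.34 (1.08 to 1.69). It was 1.83 when thinned to 1000 UMI and 2.63 where the next list could have at most 1/3 as many markers. Cd40 was thus found in several classes known to present antigen. Tnfrsf13b (TACI, a receptor of Tnfsf13b) was 164 CPM in pDC-like cells (237 UMI, 60.9% of cells) and 158 CPM in plasma-like cells (151 UMI, 82.7% of cells), a ratio of 1.04 (0.842 to 1.28). B-like cells stood at 62.8 CPM (652 UMI, 18.5% of cells), and both monocyte-like classes at 36.5 CPM. T-like cells were at 9.46 and Kupffer-like cells at 1.90 CPM. The B cell marker list was 60.8 CPM in pDC-like cells, 645 CPM in plasma-like cells and 8811 CPM in B-like cells. The part of B cell transcripts in these levels was not tested.

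Of the TNF receptors themselves, Tnfrsf1a was spread over myeloid and endothelial classes, and Tnfrsf1b over myeloid, NK-like and ILC1-like ones. Tnfrsf1a (TNFR1, a death domain receptor of broad expression) was 357 CPM in neutrophil-like cells (938 UMI), 269 CPM in nonclassical monocyte-like, 258 CPM in endothelial-like, 247 CPM in classical monocyte-like and 161 CPM in Kupffer-like cells. It was 94.3 CPM in ILC1-like, 33.2 CPM in NK-like, 31.6 CPM in T-like and 4.63 CPM in B-like cells. Tnfrsf1b (TNFR2, which lacks a death domain) was 386 CPM in nonclassical monocyte-like cells (518 UMI), 194 CPM in classical monocyte-like, 166 CPM in neutrophil-like, 123 CPM in NK-like, 121 CPM in ILC1-like and 114 CPM in Kupffer-like cells. Endothelial-like cells had 4.01 CPM of Tnfrsf1b (26 UMI). Endothelial-like cells thus held Tnfrsf1a with little Tnfrsf1b, and their level of Tnfrsf1b was 0.0350 times (0.0226 to 0.0521) that of Kupffer-like cells, whereas for Tnfrsf1a the ratio was 1.61 (1.46 to 1.77).

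Fas (the death receptor of Fas ligand, chr19:34290666-34327772) was 109 CPM in endothelial-like cells (705 UMI, 50.8% of cells) and 107 CPM in neutrophil-like cells (280 UMI, 24.5% of cells), a ratio of 1.02 (0.887 to 1.18). Classical monocyte-like cells stood at 39.7, T-like cells at 34.1 and Kupffer-like cells at 4.35 CPM (16 UMI). Endothelial-like and neutrophil-like cells thus stood together above the other classes in Fas. Tnfrsf21 (DR6, a death domain receptor) was 93.3 CPM in classical monocyte-like, 70.0 CPM in nonclassical monocyte-like and 64.1 CPM in Kupffer-like cells. Tnfrsf21 was 0.462 CPM in endothelial-like cells (3 UMI), the reverse of Fas. Tnfrsf10b (a death domain receptor) was 6.97 CPM in T-like cells (92 UMI) and 5.24 CPM in endothelial-like cells (34 UMI), a ratio of 1.33 (0.888 to 2.03).

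Ltbr (the lymphotoxin beta receptor, known on stromal and myeloid cells and absent from lymphocytes) was 108 CPM in endothelial-like cells (700 UMI, 51.4% of cells), 66.5 CPM in Kupffer-like, 61.0 CPM in classical monocyte-like and 55.9 CPM in nonclassical monocyte-like cells. Neutrophil-like cells stood at 24.7 and cDC1-like cells at 22.8 CPM. In lymphoid classes Ltbr ranged from 0 UMI in NK-like cells (up to 1.66 CPM) to 2.77 CPM in ILC1-like cells (2 UMI), with 1.35 CPM in B-like and 0.909 CPM in T-like cells. Tnfrsf11a (RANK, the receptor of Tnfsf11) was 43.2 CPM in Kupffer-like cells (159 UMI, 31.6% of cells), 9.58 CPM in cDC1-like cells (8 UMI) and 8.94 CPM in nonclassical monocyte-like cells (12 UMI), with a Kupffer-like to cDC1-like ratio of 4.51 (2.23 to 10.6). Thinned to 1000 UMI that ratio was 1.40, no longer 2-fold, but fewer than 30 UMI of Tnfrsf11a were then left in the ranked classes. Neutrophil-like cells had 0 UMI of Tnfrsf11a, which allows up to 1.14 CPM. Tnfrsf12a (the TWEAK receptor Fn14) was 18.6 CPM in nonclassical monocyte-like cells (25 UMI) and between 1.05 and 8.32 CPM in every other class. The ratio to the next class was 2.24, but its interval (0.896 to 6.67) included 1, and it was 1.23 when thinned to 1000 UMI.

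Tnfrsf22 and Tnfrsf23, mouse decoy receptors that lack a signalling domain, were found in different classes. Tnfrsf23 was 97.0 CPM in neutrophil-like cells (255 UMI, 18.9% of cells), 11.2 CPM in endothelial-like and 10.4 CPM in nonclassical monocyte-like cells, a ratio of 8.62 (6.62 to 11.3) to the next class. Tnfrsf22 was 13.3 CPM in endothelial-like cells (86 UMI) and 2.28 CPM in neutrophil-like cells (6 UMI). Tnfrsf26, the third gene of this cluster, was 19.1 CPM in T-like cells, 15.1 CPM in endothelial-like, 10.4 CPM in B-like and 10.3 CPM in Kupffer-like cells. Among 91-base windows of Tnfrsf22 transcripts, 10.3% also occur in Tnfrsf23, so some reads of the pair could not be told apart. Tnfrsf26 shared no such window with either, and an antisense gene, E230032D23Rik, overlaps exons of Tnfrsf26 and Tnfrsf23. Tnfrsf19 (TROY) had 9 UMI in the ranked classes, 7 of them in B-like cells.

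Tnfrsf11b (osteoprotegerin, the soluble decoy receptor of Tnfsf11) had 3 UMI in the ranked classes and 44 UMI in 15 kept barcodes, 12 of which were in no class. Of those 44 UMI, 38 lay in 9 barcodes with at least 3 stellate cell markers, of which there were 33 among all kept barcodes. The markers of stellate cells were read for their level only and define no class here. Of the same 15 barcodes, 6 had at least 3 hepatocyte markers and held 23 UMI. Most of the Tnfrsf11b UMI thus fell in few barcodes outside the immune classes.

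Ligands and receptors were then paired across classes. Of 19 listed pairs, 12 had at least 30 UMI on both sides, and in 12 of these 12 the ligand and the receptor were highest in different classes. Among all pairs of genes with at least 30 UMI that share is 89.6%, so the count is near what genes in general give. The pairs share members (Lta in 4 and Ltbr in 3), and the order of classes was undecided for some, so this is a count and not 12 separate results. The clearest separations were of T-like ligands from myeloid or B cell receptors. Cd40lg in T-like cells (33.0 CPM) faced Cd40 at 0.454 CPM in the same class. Tnfsf11 in T-like cells (15.1 CPM) faced Tnfrsf11a at 0.227 CPM there (3 UMI), and Kupffer-like cells, highest for Tnfrsf11a, had 0 UMI of Tnfsf11. Tnfsf9 and Tnfrsf9 excluded each other in their highest classes: classical monocyte-like cells had 0 UMI of Tnfrsf9 (up to 1.39 CPM) and ILC1-like cells 0 UMI of Tnfsf9 (up to 4.16 CPM). Ltb was high in B-like, T-like and ILC1-like cells, and Ltbr in endothelial-like, Kupffer-like and monocyte-like ones. Neutrophil-like cells held Ltb (188 CPM) together with Ltbr (24.7 CPM) and Tnfsf14 (74.2 CPM), and nonclassical monocyte-like cells held Ltb (66.3 CPM) with Ltbr (55.9 CPM). Tnfsf13b in neutrophil-like cells faced Tnfrsf13b at 0.761 CPM there (2 UMI). Tnfsf12 was present at 23.8 CPM in the nonclassical monocyte-like cells that led for Tnfrsf12a. Levels of transcripts do not show contact or signalling.

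**Figure D2:**
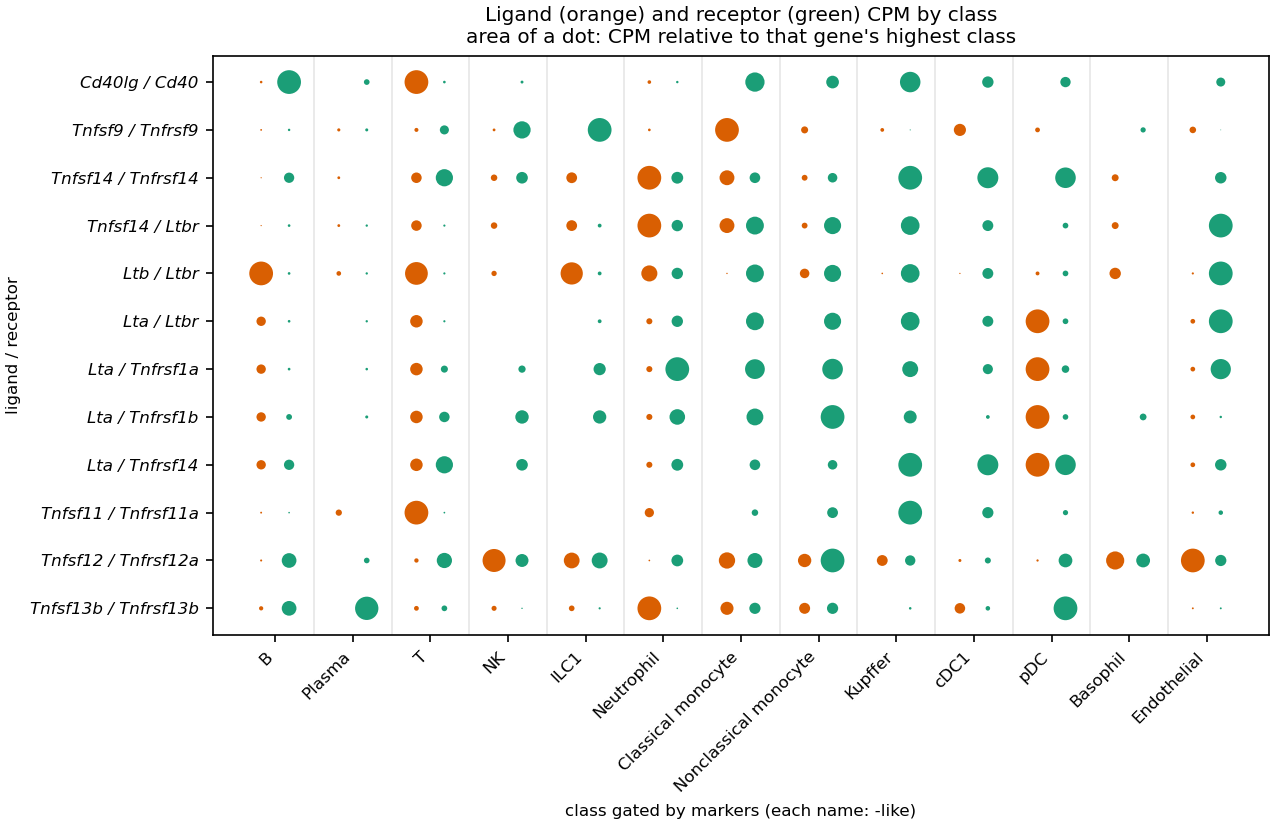
CPM of the ligand (orange) and the receptor (green) of the 12 detected pairs (rows) in the 13 classes (columns), with the area of a dot proportional to the level relative to that gene's highest class. Cd40lg and Tnfsf11 are nearly confined to T-like cells while Cd40 and Tnfrsf11a lie in other columns; the large pDC-like dot of Lta rests on 1 cell that carried 14 of 17 UMI.

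In 5 of the 7 pairs with an undetected side, the receptor was detected and the ligand of that pair was not. Cd27 (2518 UMI), Tnfrsf18 (1026 UMI), Tnfrsf4 (368 UMI), Tnfrsf13b (1316 UMI) and Tnfrsf25 (202 UMI) were detected while Cd70, Tnfsf18, Tnfsf4, Tnfsf13 and Tnfsf15 were not. For Tnfsf8 and Tnfsf11 it was the receptor, Tnfrsf8 and Tnfrsf11b, that was not. Tnfrsf13b and Tnfsf11 each had another listed partner that was detected, Tnfsf13b (116 UMI) and Tnfrsf11a (204 UMI).

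Within T-like cells, subsets were set by 1 UMI of a lineage gene that is no member, so a cell that lacks the UMI may still express the gene. Median depth of the 7 subsets described ran from 4669.5 to 6019 UMI. Cells with Foxp3, the regulatory T cell factor (50 cells), were compared with the other 2255 T-like cells. At least 2-fold higher with Foxp3 were 8 of 23 members with enough counts, where 9.44% of all genes were, and 1 was 2-fold lower (8.65% of all genes). Tnfrsf4 was 273 CPM with Foxp3 (89 UMI) and 18.6 CPM without, a ratio of 14.7 (11.4 to 18.8). Tnfrsf18 was 190 against 53.1 CPM (3.58; 2.72 to 4.65), Tnfrsf9 64.4 against 17.7 CPM (3.64; 2.21 to 5.70) and Tnfrsf1b 169 against 72.4 CPM (2.33; 1.74 to 3.06). Tnfrsf13b was 30.7 CPM on 10 UMI against 8.93 CPM, and Tnfrsf22, Tnfrsf10b and Tnfrsf25 passed the 2-fold mark on 4, 5 and 9 UMI, with intervals that included 1 for Tnfrsf10b (0.720 to 5.51) and Tnfrsf25 (0.925 to 3.99). Of the 7 costimulatory receptors listed, Tnfrsf4, Tnfrsf18 and Tnfrsf9 thus passed the 2-fold mark. Cd27 (239 against 147 CPM; 1.63, 1.28 to 2.04) and Tnfrsf14 (1 UMI with Foxp3) did not, and Cd40 and Tnfrsf8 had too few UMI. Among the ligands, Cd40lg was 6.14 CPM with Foxp3 (2 UMI) and 33.7 CPM without, and Tnfsf11 and Tnfsf14 had 0 UMI with Foxp3, with intervals of the ratio up to 0.739 and 0.767. Ltb was 657 against 369 CPM (1.78; 1.54 to 2.04) and Tnfsf8 46.0 against 35.5 CPM (1.30; 0.720 to 2.16).

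Tnfrsf4 and Tnfrsf18 are neighbours 9.55 kb apart on chromosome 4 (chr4:156013843-156016612 and chr4:156026164-156028895 in GENCODE), with no coding gene between them. The sequences before their RefSeq starts are shown because both were high in Foxp3 cells while only Tnfrsf18 led in ILC1-like cells. RefSeq and GENCODE starts differ here. The Tnfrsf18 sequence runs into the GENCODE gene, and the Tnfrsf4 sequence ends before the GENCODE gene begins. Exons of Tnfrsf18 are overlapped on the other strand by Gm16008. Neither window held the NF-kB consensus. Tnfrsf9, on the same chromosome, has 2 windows, and the second, at a start inside the gene, holds 1 stretch of overlapping matches, in capitals, that begins 43 bases before that start. The 250 bases before each start (RefSeq, GRCm38.p6, all on the plus strand, 5′ to 3′) are chr4:156013445-156013694, chr4:156026072-156026321 and chr4:150927749-150927998:
Tnfrsf4: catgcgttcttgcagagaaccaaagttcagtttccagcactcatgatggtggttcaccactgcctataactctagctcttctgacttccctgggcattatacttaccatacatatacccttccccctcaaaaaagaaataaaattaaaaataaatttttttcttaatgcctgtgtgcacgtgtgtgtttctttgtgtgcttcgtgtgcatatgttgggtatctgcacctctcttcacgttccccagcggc
Tnfrsf18: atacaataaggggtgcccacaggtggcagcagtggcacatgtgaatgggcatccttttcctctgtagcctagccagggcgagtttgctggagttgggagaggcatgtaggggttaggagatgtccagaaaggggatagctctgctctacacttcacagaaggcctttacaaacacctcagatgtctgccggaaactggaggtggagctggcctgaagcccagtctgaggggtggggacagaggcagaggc
Tnfrsf9: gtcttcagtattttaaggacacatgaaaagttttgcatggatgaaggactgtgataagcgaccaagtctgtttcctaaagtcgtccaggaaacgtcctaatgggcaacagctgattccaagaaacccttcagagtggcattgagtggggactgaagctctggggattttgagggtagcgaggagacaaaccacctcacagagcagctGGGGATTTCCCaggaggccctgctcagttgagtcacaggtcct

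Cells with Zbtb16, the factor of NKT cells and other innate-like T cells (204 cells), differed in another way. Of 23 members, 6 were at least 2-fold higher (3.30% of all genes) and 3 at least 2-fold lower (7.13%). Cd40lg was 82.7 against 27.1 CPM (3.05; 2.44 to 3.78), Tnfsf14 39.9 against 11.5 CPM (3.46; 2.49 to 4.76) and Tnfsf11 30.7 against 13.2 CPM (2.32; 1.61 to 3.27). The receptors Tnfrsf25, Tnfrsf18 and Tnfrsf1a stood at 33.5, 131 and 67.7 CPM against 11.4, 47.6 and 27.3 CPM. Tnfrsf4 was lower, 4.28 against 27.4 CPM, as was Tnfsf8, 13.5 against 38.4 CPM. The third was Tnfsf9, on 2 UMI. Side by side, cells with Foxp3 and with Zbtb16 had Tnfrsf18 at 190 and 131 CPM, Tnfrsf4 at 273 and 4.28 CPM and Cd40lg at 6.14 and 82.7 CPM; the difference between these subsets was not tested.

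Cells with Trdc, a gamma delta T cell receptor constant gene (152 cells), had Tnfrsf9 at 47.3 against 16.9 CPM and Tnfsf11 at 28.9 against 14.1 CPM, the 2 members of 23 at least 2-fold higher (4.42% of all genes). Tnfrsf4 was 5.77 against 26.3 CPM, and Tnfrsf10b and Tnfrsf13b were also 2-fold lower, on 1 and 3 UMI (5.27% of all genes).

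Among cells with Cd4, those without Lef1, a gene of naive T cells (128 cells), were compared with those with Lef1 (221 cells). Of 12 members, 6 were at least 2-fold higher without Lef1 (6.74% of all genes). These were Tnfsf11 (80.3 against 20.9 CPM; ratio 3.85, 2.36 to 6.45), Tnfrsf1b (123 against 33.4 CPM), Cd40lg (153 against 43.4 CPM; 3.53, 2.51 to 5.03), Tnfrsf4 (118 against 40.1 CPM), Tnfrsf18 (105 against 39.2 CPM) and Cd27 (ratio 2.18, 1.68 to 2.84). Tnfrsf26 was the 1 gene lower, 14.6 against 30.9 CPM (3.05% of all genes). Cd4 cells without Lef1 held the highest level of Cd40lg, Tnfsf11 and Tnfsf8 (126 CPM) among the 7 subsets drawn. Among cells with Cd8b1, 721 with Ccl5, a gene of memory and effector cells, were set against 205 without. Tnfrsf1b was 63.6 against 23.2 CPM (2.74; 1.87 to 4.13), Tnfrsf9 12.8 against 5.42 CPM and Tnfsf14 8.85 against 1.55 CPM (2 UMI), 3 of 12 members (12.6% of all genes). Tnfrsf23 was lower, 5.59 against 15.5 CPM (2.39% of all genes). In both groups of cells with Cd8b1 Cd40lg stayed at or below 3.03 CPM.

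**Figure D3:**
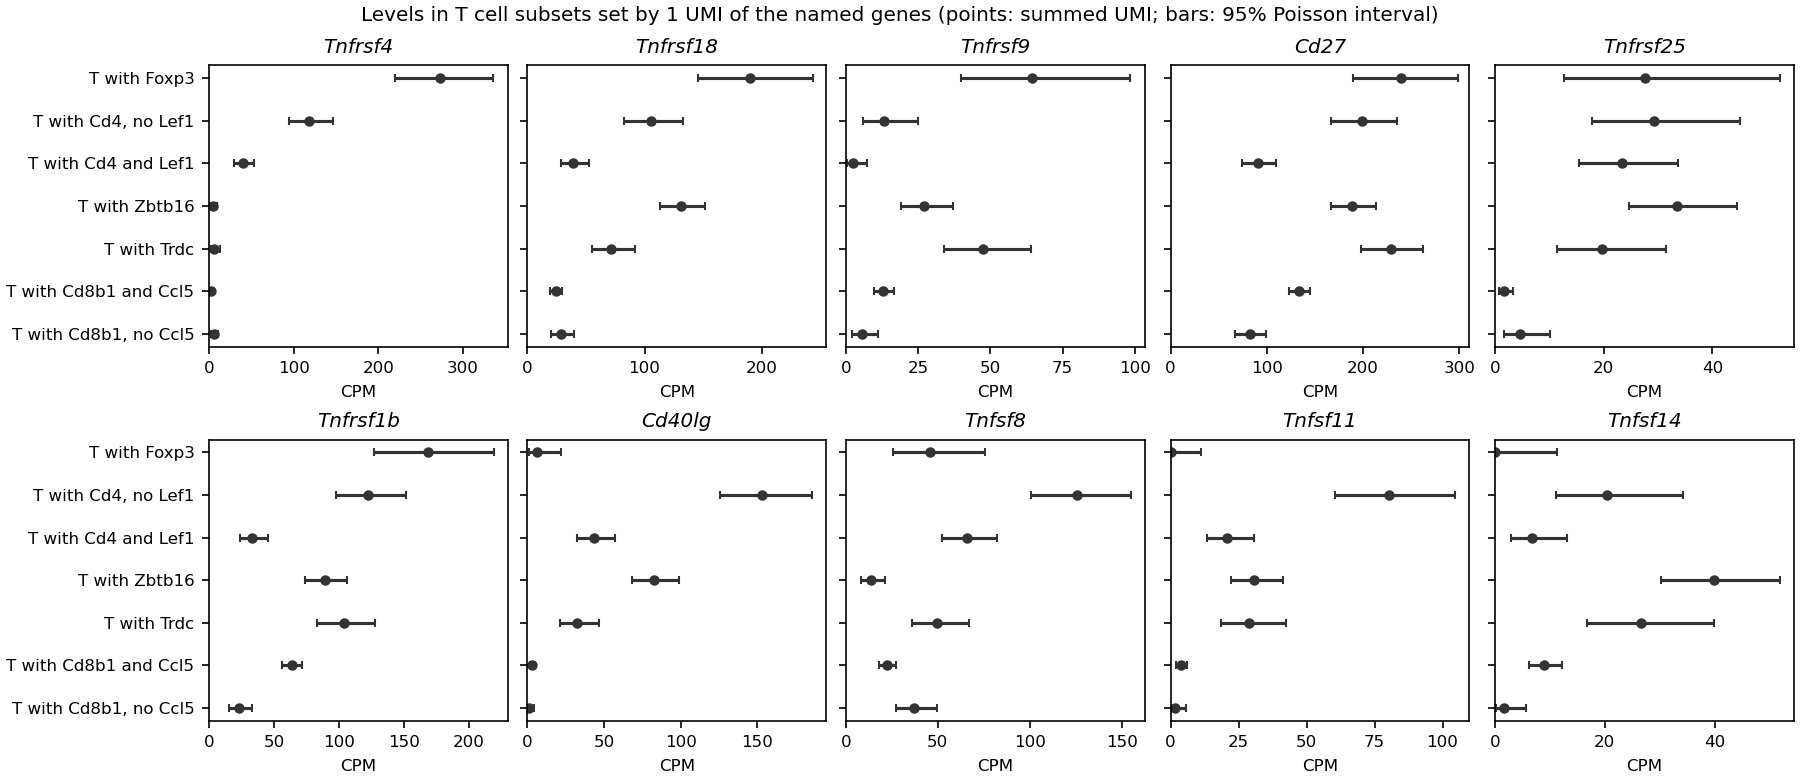
CPM of 6 receptors (Tnfrsf4, Tnfrsf18, Tnfrsf9, Cd27, Tnfrsf25, Tnfrsf1b) and 4 ligands (Cd40lg, Tnfsf8, Tnfsf11, Tnfsf14) in 7 subsets of T-like cells set by 1 UMI of the genes named, with 95% Poisson intervals as bars. Tnfrsf4 peaks with Foxp3 at 273 CPM, whereas Cd40lg and Tnfsf11 peak in cells with Cd4 and no Lef1 at 153 and 80.3 CPM.

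Among B-like cells, those with Bhlhe41, a factor of B-1 cells (234 cells), had Fas at 10.7 against 3.13 CPM in the other 2669 (3.42; 1.59 to 6.90), 1 of 11 members at least 2-fold higher (3.59% of all genes). Tnfrsf12a was lower on 4 UMI, 3.57 against 7.56 CPM (0.472; 0.125 to 1.26; 2.51% of all genes). Ltb was 458 against 405 CPM, Cd40 29.4 against 37.4 CPM and Tnfrsf13b 78.5 against 60.9 CPM. In B-like cells with Fcer2a, a gene of follicular B cells, and with Vpreb3, a gene of less mature B cells, Tnfrsf13b was 49.6 and 73.1 CPM and Tnfrsf18 7.80 and 2.89 CPM.

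Related classes were set side by side. In the comparison of NK-like with ILC1-like cells, 4 of 7 members were at least 2-fold higher in ILC1-like cells (6.03% of all genes) and 1 in NK-like cells (6.23%). The widest gap was that of Ltb, with 20.5 and 359 CPM, a ratio of 0.0570 (0.0393 to 0.0807). Tnfrsf18 (36.0 against 153 CPM), Cd27 (76.4 against 203 CPM) and Tnfrsf1a (33.2 against 94.3 CPM) had the same direction, and Tnfsf12 (70.9 against 33.3 CPM) the opposite one. Among cells with no T marker (311 NK-like and 44 ILC1-like), Ltb was 14.9 and 382 CPM. Tnfrsf1b did not separate these classes, with 123 and 121 CPM.

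Between nonclassical and classical monocyte-like cells, 2 of 12 members were at least 2-fold higher in the former (7.77% of all genes) and 3 in the latter (10.7%). Ltb was 66.3 CPM in nonclassical and 1.39 CPM in classical monocyte-like cells (47.8; 15.8 to 236), and Tnfrsf12a 18.6 and 7.39 CPM (2.52; 1.29 to 5.05). The T and B marker lists were 13.4 and 41.0 CPM in nonclassical and 8.78 and 25.4 CPM in classical monocyte-like cells. Tnfsf9 was 10.4 and 119 CPM, Tnfsf14 4.47 and 29.1 CPM and Cd40 10.4 and 24.0 CPM. Tnfsf12, at 23.8 and 35.6 CPM, did not pass the 2-fold mark.

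Kupffer-like cells, the resident macrophages, had 3 of 13 members at least 2-fold above classical monocyte-like cells (18.6% of all genes) and 5 at least 2-fold below (11.8%). Above were Tnfrsf11a (43.2 against 3.23 CPM; 13.4, 6.33 to 33.7), Tnfrsf26 (10.3 against 0.462 CPM, the latter on 1 UMI; 22.3, 3.77 to 905) and Tnfsf13os. Below were Tnfsf9, Tnfsf14, Tnfrsf13b, Fas and Tnfsf12. The ligands Tnfsf9, Tnfsf14 and Tnfsf12 were thus all lower in Kupffer-like cells. Cd40 and Ltbr differed little, with ratios of 1.13 (0.801 to 1.61) and 1.09 (0.879 to 1.36).

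Neutrophil-like cells had 5 of 13 members at least 2-fold above classical monocyte-like cells (13.2% of all genes) and 6 below (47.1%). Above were Ltb, Tnfrsf23 (35.0-fold; 15.9 to 96.3), Tnfsf13b, Fas (107 against 39.7 CPM) and Tnfsf14 (2.55-fold; 1.91 to 3.44). Below were Cd40, Tnfsf12, Tnfsf9, Tnfrsf13b, Tnfrsf21 and Ltbr. Between endothelial-like and Kupffer-like cells, 6 of 16 members were at least 2-fold higher in the former (28.6% of all genes) and 5 in the latter (13.9%). Endothelial-like cells held more Fas, Cd27, Tnfrsf22, Tnfsf12 and Tnfsf9, and Tnfrsf10b with 34 UMI against 0, whereas Kupffer-like cells held more Tnfrsf21, Tnfrsf1b, Tnfrsf11a, Cd40 and Tnfsf13os. Between pDC-like and B-like cells, each class had 4 of 12 members 2-fold above the other (16.4% and 16.9% of all genes). Tnfrsf13b, Tnfrsf1a (36.0 against 4.63 CPM; 7.77, 5.15 to 11.8), Tnfrsf18 and Lta were higher in pDC-like cells, and Ltb (11.1 against 411 CPM), Cd40, Tnfrsf26 and Tnfrsf23 in B-like cells.

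Levels of members that are neighbours in the genome were set side by side as a description, since most pairs of genes differ in their highest class. On chromosome 6, Cd27, Ltbr and Tnfrsf1a lie within 69.6 and 35.5 kb of each other, with 1 coding gene in each gap, and were highest in ILC1-like, endothelial-like and neutrophil-like cells. On chromosome 7, Tnfrsf26, Tnfrsf22 and Tnfrsf23 are 6.08 and 16.1 kb apart and were highest in T-like, endothelial-like and neutrophil-like cells. On chromosome 17, Tnfsf9, Cd70 and Tnfsf14 are 38.2 and 39.7 kb apart, and classical monocyte-like cells led for Tnfsf9, neutrophil-like cells for Tnfsf14 and no class for Cd70. Tnfrsf1b and Tnfrsf8 are 20.3 kb apart on chromosome 4, of which Tnfrsf8 was not detected.

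**Figure D4:**
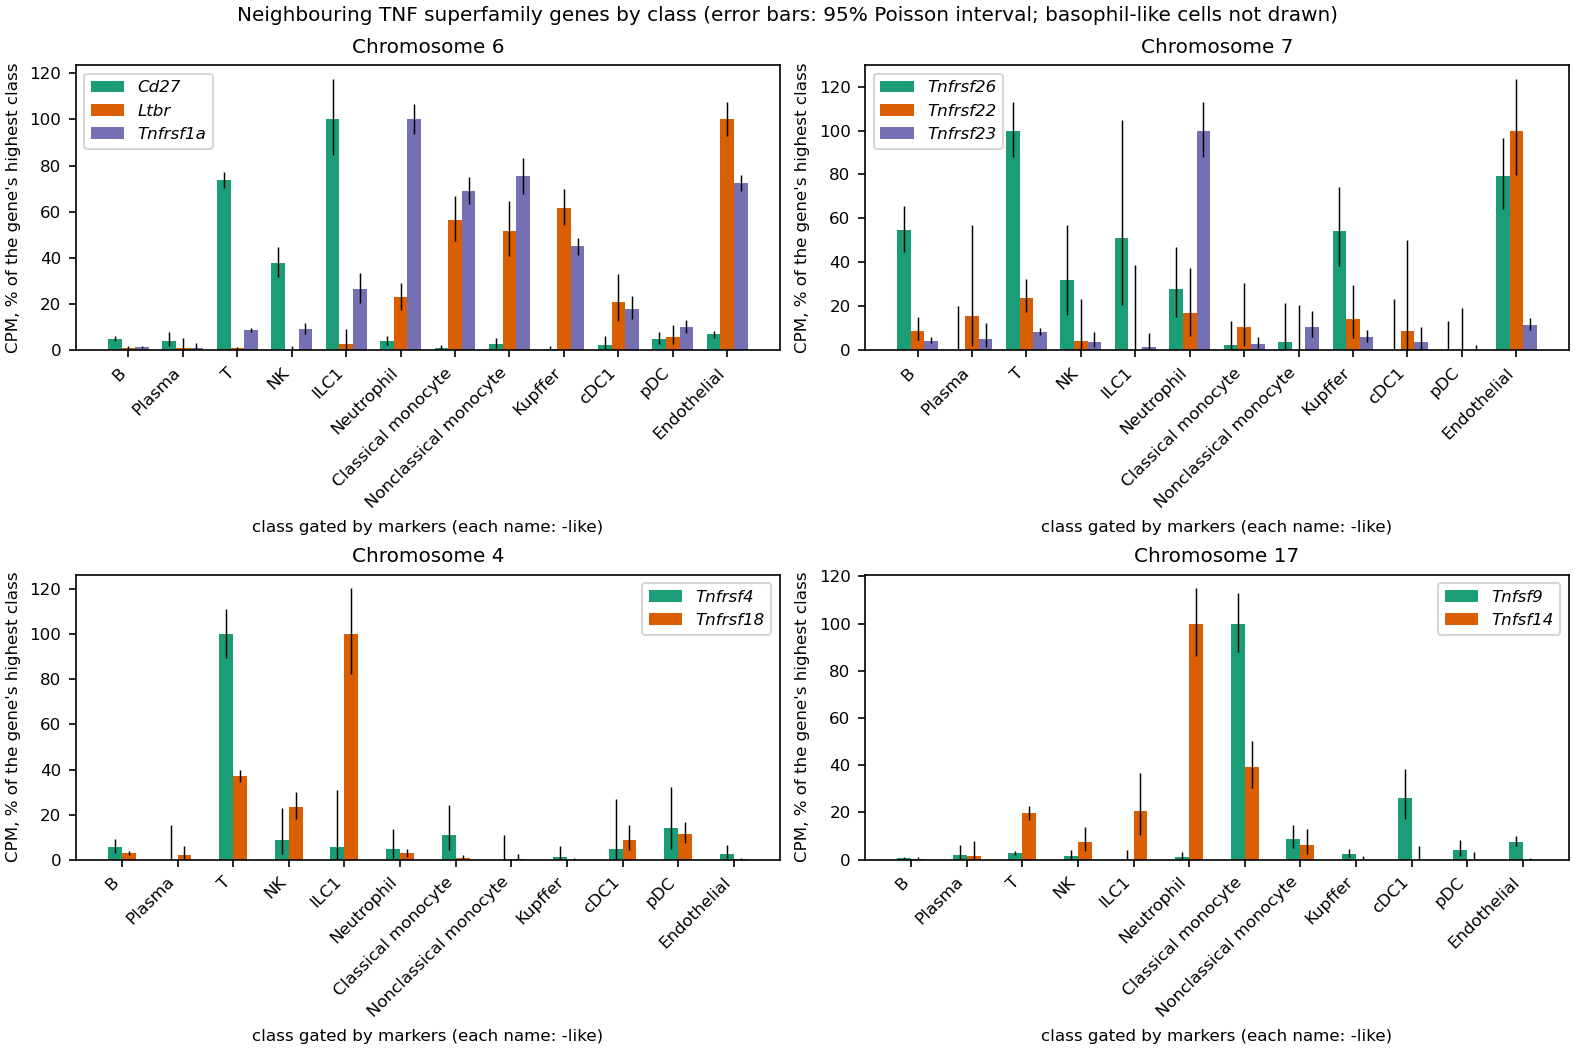
CPM of neighbouring members as a percentage of each gene's highest class, in 12 of the 13 classes (33 basophil-like cells are left out), with 95% Poisson intervals. The bars of Cd27, Ltbr and Tnfrsf1a reach 100 in ILC1-like, endothelial-like and neutrophil-like cells, and those of Tnfrsf26, Tnfrsf22 and Tnfrsf23 in T-like, endothelial-like and neutrophil-like cells.

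The number of cells that held any member was compared after each cell was thinned to 1000 UMI, since depth differed between classes. A receptor was found in 57.3% of neutrophil-like cells (54.0 to 60.6%), 53.8% of ILC1-like, 52.9% of classical monocyte-like and 52.2% of nonclassical monocyte-like cells, whose intervals overlapped. Receptors were found in 15.5% of B-like cells (14.2 to 16.9%) and 39.1% of Kupffer-like cells. A ligand was found in 37.2% of ILC1-like, 34.1% of T-like, 31.9% of B-like and 26.7% of neutrophil-like cells, and in 1.95% of Kupffer-like (0.721 to 4.21%) and 2.20% of pDC-like cells (0.602 to 5.53%). Without thinning, 20.7% of Kupffer-like cells had a ligand and 81.0% a receptor, and 67.1% of B-like cells had a ligand and 42.7% a receptor. Of the listed members, Kupffer-like cells thus held a receptor more often than a ligand, and B-like cells the reverse. Other classes shared the Kupffer-like order, such as pDC-like cells with a receptor in 24.7%. Tnf, outside the rule and not counted here, stood at 116 CPM in Kupffer-like cells. Ltb made up 411 of the 416 CPM of ligands in B-like cells. Thinning left out 51 Kupffer-like, 16 endothelial-like and at most 7 cells of any other class that held fewer UMI.

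**Figure D5:**
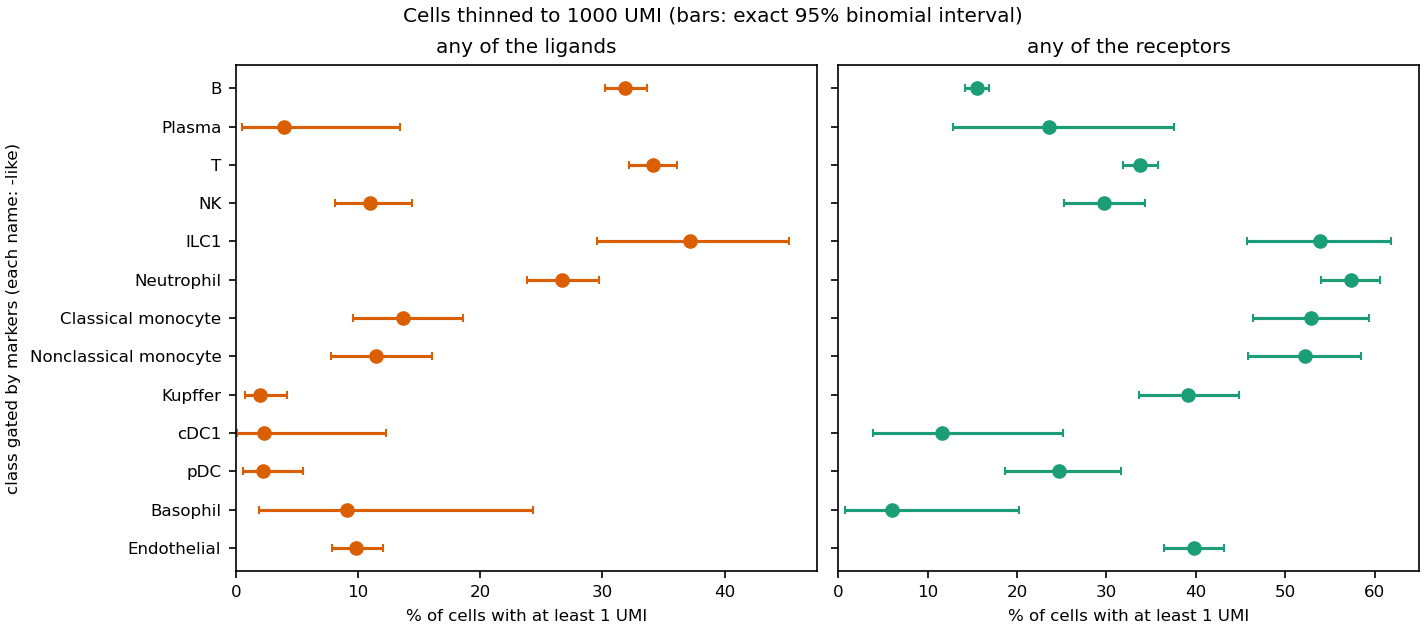
Share of cells with at least 1 UMI of any ligand (left) or any receptor (right) in each of the 13 classes after thinning every cell to 1000 UMI, with exact 95% binomial intervals. Ligands lead in ILC1-like, T-like, B-like and neutrophil-like cells (26.7 to 37.2%), and receptors in neutrophil-like, ILC1-like and both monocyte-like classes (52.2 to 57.3%).

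Genes of the same pathway outside the rule were read from fixed lists. Of 16 adaptors and proximal effectors, 16 were detected. Their median ratio of the highest to the next class was 1.29, against 1.32 for all genes. Of the 16, 4 were at least 2-fold above the next class, near the 24.6% of all genes. These 4 were Traf1, an NF-kB-inducible adaptor, in nonclassical monocyte-like cells (438 CPM), Map3k14, the NIK kinase of the noncanonical NF-kB pathway, in the same class (137 CPM), Traf5 in B-like cells (91.3 CPM) and Traf4 in pDC-like cells (115 CPM). Nonclassical monocyte-like cells, highest for Tnfrsf1b, were thus also highest for Traf1, which binds that receptor. Casp8 and Ripk1, effectors of death domain receptors, were highest in endothelial-like cells, at 141 and 176 CPM, but with ratios of only 1.23 and 1.33 to the next class. Of 7 other family members, 4 were detected. Tnf was highest in basophil-like cells (365 CPM, against 116 CPM in Kupffer-like cells), which also had the highest digestion response level. Fasl, the ligand of Fas, was found at 307 CPM in ILC1-like cells and at 277 CPM in NK-like cells (1.11; 0.941 to 1.30), whereas Fas was 12.5 and 6.64 CPM there and 109 CPM in endothelial-like cells. Eda2r, the receptor of ectodysplasin A2, was 19.6 CPM in endothelial-like cells and Relt 64.1 CPM in nonclassical monocyte-like cells.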

How the data were processed

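Deposited values were UMI counts per gene and barcode, not normalized, as their whole numbers show. Per the submitters' processing notes the authors used Cell Ranger 2.1.1, STAR, Seurat 2.3.4 and mm10; the matrix names software version 3.0.0, per the file headers. Cell calling, strand use and doublet removal are not given in the sources used here.

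Counts were analysed in Python 3.11.15 (numpy 2.4.6, scipy 1.17.1, pandas 2.3.3, scanpy 1.11.5). UMI were summed per class and expressed as CPM, with exact Poisson intervals for levels, exact Clopper-Pearson intervals for shares and exact conditional intervals for ratios. UMI were treated as independent, so variation between cells and animals is left out. In comparisons of 2 groups of cells, only genes with at least 30 UMI in both together were read. NK-like and ILC1-like cells were split where their markers differed by at least 2, which left 118 unsplit. Scrublet called 351 doublets (3.39%); they were removed only as an alternative. The functions were tested on simulated data. Every member is named; other genes come from lists written down with the classes.

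The genes and lists were chosen with earlier results of these data known. The share of markers allowed to the next list, the removal of single cells with most UMI and the split of ILC1-like cells by T markers were chosen after seeing the data. The genotypes were not compared. Coordinates are of GENCODE vM21 (GRCm38).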

Additional observations from a re-analysis of the deposited data

How the results depend on the processing

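With 1 sample no result had a test, and no paired analysis was possible because the files of both samples were identical; WT against Rcrin knockout gave no value. The number of pairs with different highest classes was 5 (of 5 detected) with each cell thinned to 1000 UMI and 7 (of 7 detected) at a minimum of 100 UMI, where fewer genes were counted, against 12. For Lta the ratio of the pDC-like to the T-like level was 0 when thinned to 1000 UMI and 0.637 without the cell with most UMI. The counts of members detected (21 to 30), at least 2-fold above the next class (8 to 13) and highest in a lymphoid class (11 to 14) stayed within 1.5 times the reported values. Of 344 ratios of single members recomputed, 315 lay within the interval of the reported ratio, 27 outside it, and 2, those of Lta, turned from at least 2-fold to below 1. In all 21 ratios of 9 members were below 1. A next class with 0 UMI was given the level of 3 UMI, so such a ratio need not mean that the next class came first. Apart from Lta, these members were not called 2-fold. With thinning the ratios of Lta, Tnfsf13b, Tnfrsf11a, Tnfrsf12a and Tnfrsf4 to the reported next class fell under 2, the last on a level of 3 UMI. Lta, Tnfsf13b, Tnfrsf11a and Tnfrsf22 then had fewer than 30 UMI, so they were not called 2-fold. The highest class was the same in every alternative with a value for 20 of 29 members; it changed in at least 1 of 12 alternatives for Fas, Lta, Ltb, Tnfrsf13b, Tnfrsf14, Tnfrsf26, Tnfsf12, Tnfsf13os and Tnfsf8. Clusters built without the members gave the same name as the gate to 97.3% of the 8528 cells compared, and named no cDC1-like cluster. Low counts limit Tnfrsf14, Tnfrsf12a, Lta and all levels in basophil-like cells.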
